A study of Sus scrofa with 9 samples.

Results

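The comparison described here is that of Obese-MSCs cultured with vitamin-C against untreated Obese-MSCs, and it comprises 6 of the 9 hMeDIP-seq samples of the series, 3 treated (numbered 4, 5 and 6 in the labels) and 3 untreated (numbered 1, 2 and 3). Members were chosen by the labels alone, and all genes of the table that holds these 6 samples were used, 18967 of its 18992 rows, after 25 rows whose gene names had become dates were dropped. All 6 samples were mesenchymal stem/stromal cells (MSCs) from the subcutaneous abdominal fat of female domestic pigs made obese by a high-fat/high-fructose diet for 16 weeks. The pigs were 3 months old when the diet began. Cells at passage 3 were grown for a further passage, the treated group with 50 µg/mL vitamin-C over 48 h and the untreated group without this addition. The growth medium of the study's cell cultures itself contained some vitamin C as ascorbic acid phosphate, so the untreated cells were not free of it. Lean-MSCs, the other group of the series, were not used in this comparison. Neither the labels nor the methods say whether a treated and an untreated sample came from the same pig, so p-values measure only the spread between these samples.

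5-hydroxymethylcytosine (5hmC) is made from 5-methylcytosine by the TET enzymes, dioxygenases that use iron and 2-oxoglutarate and that vitamin C keeps active by keeping their iron reduced. The same chemistry is used by the collagen prolyl and lysyl hydroxylases, the prolyl hydroxylases of the hypoxia pathway and the JmjC histone demethylases. In gene bodies 5hmC usually accompanies transcription, and it is also an intermediate on the way to the removal of DNA methylation. In hMeDIP-seq, an antibody pulls down the DNA fragments that carry 5hmC, which are then sequenced, and the value of a gene here is the normalized count of such reads over its exons. The assay reads DNA, so a value is neither an RNA level nor the share of cytosines that are modified, and values are compared between samples for the same gene only.

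Totals of the normalized counts lay between 546428 and 592853 per library, and the median gene had between 13.1 and 14.2. Treated library 6 stood apart from the rest. Its Pearson correlation over genes, on log2(value + 1), was 0.855 with treated library 4 and 0.875 with treated library 5. The highest correlations joined a treated to an untreated library, 0.929 for treated 4 with untreated 1 and 0.932 for treated 5 with untreated 2. The median was 0.892 over the 9 pairs between groups, 0.875 over the 3 treated pairs and 0.895 over the 3 untreated pairs. These values are over genes, which share libraries and are not independent replicates.

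**Figure D1:**
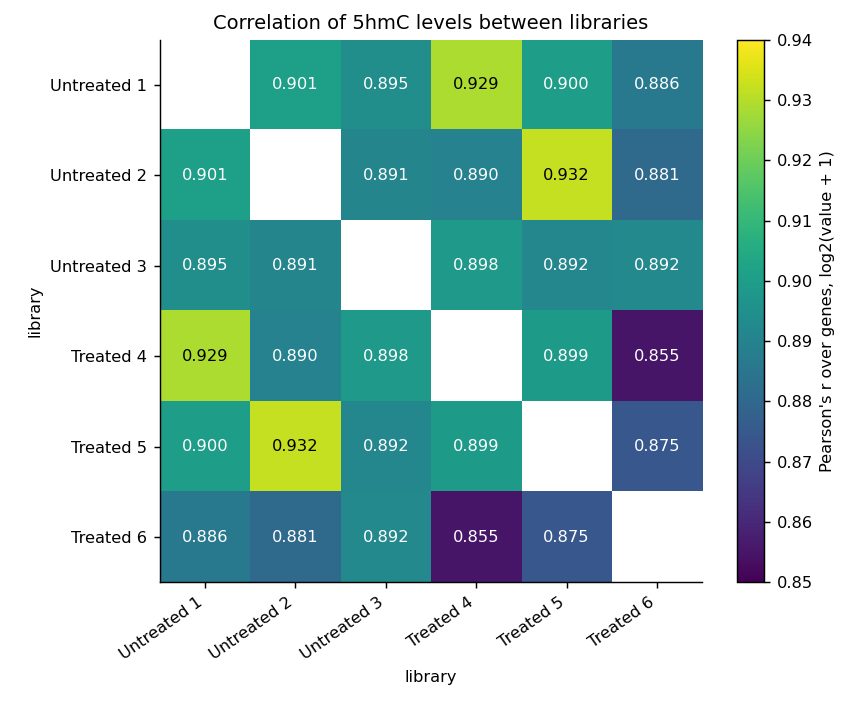
Pearson's r of log2(value + 1) between the 6 libraries over 15173 genes, the upper 80% by mean, as a coloured matrix with the value in each cell (axes are libraries). The brightest cells, 0.929 and 0.932, join a treated with an untreated library, and the row of treated library 6 is the darkest.

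The similarity was also visible in some single genes, such as IL6 and CXCL8, in which the libraries of a group differed more from each other than the groups did. In others, such as MBD6 below, the groups differed more than the libraries within them. IL6, the gene of interleukin 6, a cytokine that MSCs secrete, had 164, 240.1 and 86.4 normalized counts in the treated libraries and 176, 262 and 111 in the untreated ones. CXCL8, the gene of a neutrophil-attracting chemokine, had 46.3, 149 and 16.5 normalized counts in the treated libraries and 47.3, 109 and 24.4 in the untreated ones. In both genes the groups overlapped, the highest values were those of treated 5 and untreated 2, and the lowest those of treated 6 and untreated 3. Taken as deviations from the group mean over genes, treated 4 correlated with untreated 1 at 0.26, treated 5 with untreated 2 at 0.34 and treated 6 with untreated 3 at 0.15, while the other 6 pairs between groups lay between -0.22 and -0.031. Deviations within a group sum to 0, which pushes some of these values below 0.

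By the criteria of the study, which require an unadjusted p of 0.05 or less in a two-sided equal-variance test and treated means at least 1.4 times or at most 0.7 times the untreated means, 210 of 18967 genes (1.11%) had high 5hmC in treated Obese-MSCs and 153 (0.807%) low 5hmC. The p criterion alone was met by 501 genes (2.64%). The groups did not overlap in 614 genes (3.24%) with higher and 507 genes (2.67%) with lower values in the treated libraries, and all 363 genes that met the criteria were among these. With limma on log2(value + 1) with a trend, 0 of 15173 genes (0%) passed a Benjamini-Hochberg adjusted p of 0.05, and the smallest adjusted p was 0.99998. At an unadjusted limma p of 0.05, 85 genes (0.56%) were higher and 63 (0.415%) lower. With no difference, 5% of genes would be expected to reach an unadjusted p of 0.05. Groups would separate in a given direction in 1 of the 20 arrangements of 3 libraries against 3. In both directions together, 2.64% met the p criterion alone and 0.975% the unadjusted limma p, each below 5%. Separation was also below 1 in 20 in each direction, so genes that separated or reached these p values are not an excess. The criteria add a ratio, which lowers their level with no difference below 5%, and that level is not known. Both levels take all 6 libraries as unrelated, and the matched deviations above were not taken into account. Across these 15173 genes, in the upper 80% by mean, the median log2 ratio was 0.0016, the middle 50% lay between -0.17 and 0.18, and 50.2% of the ratios were above 1. Without treated library 4, 363 genes met the criteria as high and 170 as low, without untreated library 1 these counts were 204 and 245, and without treated library 6 they were 262 and 220.

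Most of the genes that met the criteria had low values. Of the 363, 68 were in the upper 50% by mean (31 high and 37 low), and in 50 both group means were at 3 normalized counts or less. A group lay wholly at 3 normalized counts or less in 77 of the high and 43 of the low genes, and 19 high genes were listed at 0 in all untreated libraries, so that no fold change is given for them. When genes were split into 10 bins of equal size by mean, 3.27% met the criteria in the lowest bin, 1.79% in the sixth and 0 of 1897 in the highest, where 17 genes still met the p criterion alone. The median absolute log2 ratio was 0.73 in the lowest bin and 0.087 in the highest. FN1, the fibronectin gene, had the highest mean of the table, with 1545, 1142 and 960.2 normalized counts in the treated libraries and 1285, 1065 and 1098 in the untreated ones, and its groups overlapped (log2 ratio 0.081). ZBTB20, a transcriptional repressor gene, had 1196, 1171 and 889.6 against 1134, 1137 and 1095 normalized counts, and LRRC8D, a subunit of volume-regulated anion channels, 1166, 914 and 1039 against 1143, 876 and 967 normalized counts. JARID2, a cofactor of Polycomb repressive complex 2, had 858, 836 and 753 against 889, 799 and 768 normalized counts, and COL12A1, a fibril-associated collagen, 1088, 749.8 and 621 against 934, 688 and 694 normalized counts. In each of these 5 genes the groups overlapped and the log2 ratio lay between -0.047 and 0.087.

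**Figure D2:**
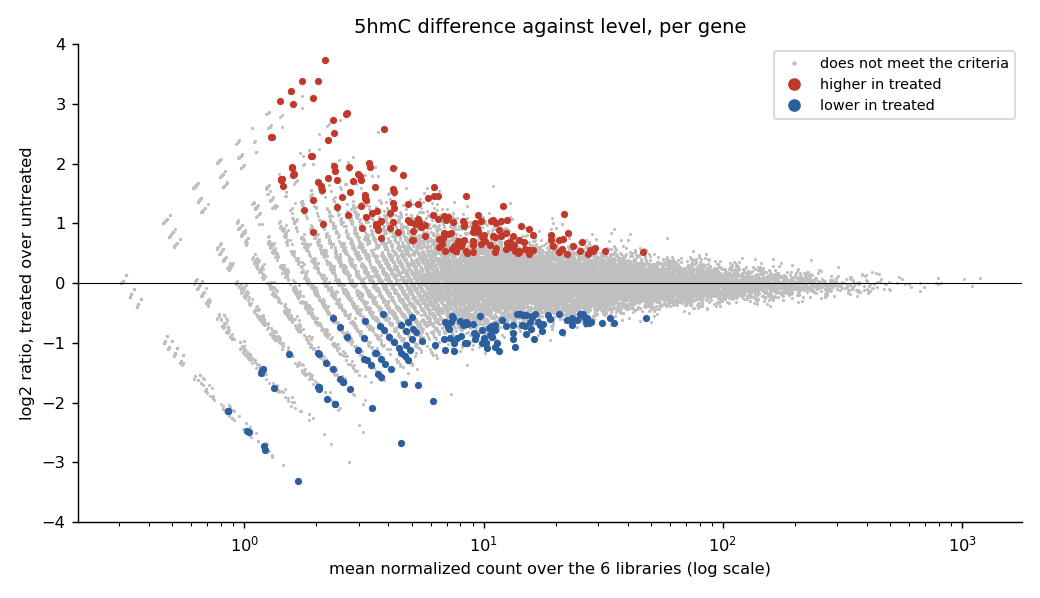
Each point is a gene, with the mean normalized count over the 6 libraries on a log axis and the log2 ratio of treated to untreated means on the other, red for the 210 genes that met the criteria as high, blue for the 153 as low and grey for the rest. The cloud narrows with level, and the 1897 genes of the highest of 10 bins by mean hold no coloured point; 215 genes listed at 0 in all untreated libraries have no ratio and are not drawn.

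Libraries of the treated group also varied more than those of the untreated group. In the 9484 genes that form the upper 50% by mean, the median coefficient of variation was 24.1% among treated and 21.0% among untreated libraries, and it was higher among treated libraries in 57.0% of these genes. Without treated library 6 the treated value was 16.9%, without library 4 it was 19.8% and without library 5 it was 22.2%. These values come from fewer libraries than the 24.1%, which by itself tends to lower a median coefficient of variation. They can therefore be compared only with each other, and no such values were computed for the untreated group. By chromosome, the median log2 ratio was between -0.030 (chromosome 16) and 0.048 (chromosome 12). In treated library 6 alone, the median log2 value of a gene relative to its mean ranged from -0.28 on chromosome 8 to 0.097 on chromosome 12, against 0.11 and -0.012 in treated library 4.

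Among genes in the upper 50% by mean whose groups did not overlap and whose direction held without each library in turn, 63 named genes met the criteria (29 high and 34 low). GALNT11 (chr18:5291526-5348113 in Sscrofa11.1), a glycosyltransferase that starts O-linked chains, had 37.2, 27.7 and 24.96 normalized counts in the treated libraries and 14.7, 13.9 and 11.8 in the untreated ones. Its lowest treated value was above its highest untreated value by more than the SD of either group, with 29.97 ± 6.43 against 13.5 ± 1.51 (SD, n = 3 each) and a log2 ratio of 1.15 (0.97 to 1.27 with each library left out). It had the smallest unadjusted limma p of the table, 0.00269, with a limma adjusted p of 0.99998. ACSM3 (chr3:25247723-25284063), a mitochondrial acyl-CoA synthetase, had 21.1, 15.7 and 19.7 against 6.78, 9.66 and 12.7 normalized counts (log2 ratio 0.96), and ANKRD53, an ankyrin repeat gene, 17.1, 23.2 and 20.6 against 10.3, 12.8 and 9.22 normalized counts (log2 ratio 0.91). For each of these genes p was 0.1 in the exact permutation test (two-sided), the smallest value that 3 libraries against 3 allow, as it was for every gene below whose groups did not overlap.

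The other 5 of the 8 highest log2 ratios among these 63 genes lay between 0.72 and 0.81. TIGIT, an inhibitory receptor of T cells and natural killer cells, had 29.2, 21.2 and 22.3 against 17.4, 8.68 and 15.4 normalized counts, and ATP13A2, a lysosomal polyamine transporter, 21.1, 17.5 and 22.4 against 13.9, 10.8 and 10.5 normalized counts. RNF19A, an E3 ubiquitin ligase gene, had 23.1, 30.6 and 26.8 against 20.01, 15.04 and 13.2 normalized counts. Every treated value of these 3 genes was above every untreated value. UBTD2, a ubiquitin-domain gene, had 16.1, 19.5 and 16.98 against 7.64, 14.9 and 9.204 normalized counts, and TAS2R3, a bitter taste receptor gene, 24.1, 27.8 and 19.6 against 18.3, 10.8 and 14.3 normalized counts. GALNT11, ANKRD53 and ATP13A2 met the criteria without each of the 6 libraries in turn, while ACSM3 met them in 3 of these 6 fits, RNF19A and TAS2R3 in 2, UBTD2 in 1 and TIGIT in 0.

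At the lower end, TTC24 (chr4:93500900-93512039), a tetratricopeptide repeat gene, had 6.05, 12.998 and 14.4 normalized counts in the treated libraries and 18.03, 21.5 and 24.4 in the untreated ones (log2 ratio -0.93). CCDC71L, a coiled-coil gene, had 14.1, 7.33 and 10.7 against 19.9, 17.2 and 20.6 normalized counts (log2 ratio -0.84). PDCD7, a protein of the minor spliceosome, had 16.1, 13.9 and 16.1 against 21.4, 29.99 and 29.6 normalized counts (log2 ratio -0.82). All treated values of these genes were below all untreated ones. ANAPC10, a subunit of the anaphase-promoting complex, had 15.1, 8.25 and 11.6 against 18.1, 18.3 and 23.1 normalized counts, and FNTB, the beta subunit of protein farnesyltransferase, 11.07, 10.2 and 12.6 against 19.02, 18.2 and 18.2 normalized counts. CDK9 (chr1:268277083-268280493), the kinase of the elongation factor P-TEFb, had 10.1, 13.9 and 15.3 against 25.2, 19.3 and 19.6 normalized counts. The log2 ratios of these 3 were -0.77, -0.71 and -0.71. TREM1, a receptor of myeloid cells, had 17.1, 22.3 and 14.2 against 33.8, 26.8 and 26.1 normalized counts, and SPACA5, a sperm acrosome gene, 16.1, 11.05 and 13.4 against 20.7, 21.5 and 23.2 normalized counts. FNTB and SPACA5 met the criteria without each library in turn, CCDC71L and PDCD7 in 3 of the 6 fits, TTC24 and CDK9 in 2, and ANAPC10 and TREM1 in 1. Of all high genes, 50 of 210 met them in every such fit, and of all low genes 39 of 153.

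**Figure D3:**
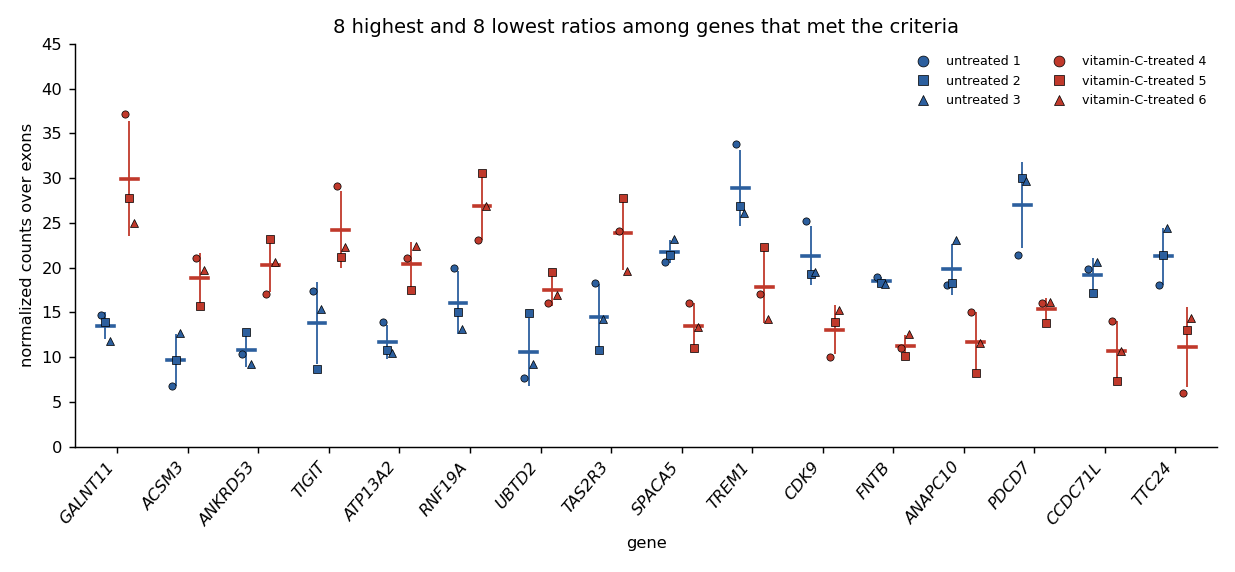
Normalized counts over exons of the 8 genes with the highest and the 8 with the lowest log2 ratios among genes that met the criteria (points are libraries, symbols only tell them apart, horizontal bars are means and vertical lines ± 1 SD, n = 3). Red and blue points do not overlap in any of the 16 genes, from GALNT11 at a log2 ratio of 1.15 to TTC24 at -0.93.

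The TET genes and the genes that transport, make or recycle vitamin C did not meet the criteria. Of 15 measured genes of vitamin C transport, synthesis and recycling, 0 met the criteria, and in 0 did the groups separate. Over all genes, 1.11% met the criteria as high and 0.807% as low, and 3.24% separated as higher and 2.67% as lower. At these shares few or no genes would be called in a list of this size. The same shares stand beside the count of each list below. SLC23A1 (chr2:141258318-141277555), a sodium-dependent vitamin C transporter, had 19.1, 18.5 and 26.1 normalized counts in the treated libraries and 14.7, 19.2 and 10.7 in the untreated ones, with 21.2 ± 4.22 against 14.9 ± 4.27 (SD, n = 3 each) and a log2 ratio of 0.51 (two-sided exact permutation p = 0.3). SLC23A2, the other such transporter, had 118, 108 and 90.3 against 109, 84.8 and 112 normalized counts (log2 ratio 0.047). GULO, the last enzyme of vitamin C synthesis, which pigs retain, had 8.05, 8.27 and 16.3 against 15.7, 10.7 and 6.85 normalized counts (log2 ratio -0.032). In all 3 genes the groups overlapped. The list's median log2 ratio was 0.16 over 14 tested genes, of which 10 had a ratio above 1, and leaving out each library moved the median to between 0.0039 and 0.22.

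TET1 (chr14:71675671-71812732) had 27.2, 33.4 and 18.6 normalized counts in the treated libraries and 38.2, 33.2 and 23.7 in the untreated ones, a log2 ratio of -0.26 (-0.47 to -0.066 with each library left out). TET2 (chr8:116413253-116546976) had 68.4, 61.1 and 45.5 against 64.96, 44.1 and 56.9 normalized counts (log2 ratio 0.077), and TET3 (chr3:68918896-69020406) 109, 79.6 and 79.6 against 98.7, 77.3 and 66.4 normalized counts (log2 ratio 0.14). The groups overlapped in all 3 TET genes, and the two-sided exact permutation p was 0.5, 0.7 and 0.5. DNMT1, the maintenance methyltransferase gene, had 40.2, 73.4 and 41.9 against 35.1, 73.8 and 49.3 normalized counts, in which treated 5 and untreated 2 were both far above the other libraries. The de novo methyltransferase genes DNMT3A and DNMT3B had log2 ratios of 0.19 and -0.15, with overlapping groups.

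SMUG1 (chr5:19375244-19412656), a DNA glycosylase that removes uracil and 5-hydroxymethyluracil, was the single gene of the 30 in the DNA methylation cycle that met the criteria (3.33%, beside 1.11% of all genes as high). It had 12.1, 12.96 and 12.5 normalized counts in the treated libraries and 8.68, 5.42 and 8.96 in the untreated ones, with 12.5 ± 0.446 against 7.69 ± 1.97 (SD, n = 3 each) and a log2 ratio of 0.70, and it met the criteria in 5 of 6 fits that left out a library, the exception being the fit without treated library 5. MBD6, a methyl-CpG-binding domain gene, had 106, 106 and 108 against 88.1, 92.2 and 93.2 normalized counts. Its groups were narrow and did not overlap, but the log2 ratio of 0.23 was below the ratio criterion. The list's median was 0.0098, beside 0.0016 over all tested genes.

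The list of collagen hydroxylases that need vitamin C also held partner proteins, such as CRTAP, and related enzymes that do not act on collagen, such as PHYH and BBOX1. Of its 19 genes, 0 met the criteria. P4HA1, the catalytic subunit of collagen prolyl 4-hydroxylase, had 10.1, 10.2 and 10.7 against 9.57, 5.43 and 8.99 normalized counts. The treated libraries agreed closely with each other and lay just above the highest untreated one (log2 ratio 0.37). PLOD2, a lysyl hydroxylase of collagen telopeptides, had 45.3, 55.7 and 30.2 against 31.1, 30.1 and 32.3 normalized counts, in which treated 4 and 5 were high and treated 6 lay among the untreated values. Without treated 6 its log2 ratio was 0.70 and met the criteria. PLOD1, another lysyl hydroxylase, had 13.1, 10.04 and 29.9 against 14.7, 18.2 and 10.7 normalized counts, and its log2 ratio of 0.28 changed to -0.33 without treated 6. PLOD3 had the highest log2 ratio of the list, 0.58, and P3H3, a prolyl 3-hydroxylase, the lowest, -0.64, both with overlapping groups, and PLOD3 met the criteria without treated 4 (log2 ratio 0.79).

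Of 33 histone and RNA demethylases of the 2-oxoglutarate family, KDM2B alone met the criteria, as low (3.03%, beside 0.807% of all genes). KDM2B (chr14:31057121-31203093), which binds CpG islands and demethylates histone H3, had 22.1, 19.4 and 22.4 normalized counts in the treated libraries and 30.2, 25.8 and 35.97 in the untreated ones, with 21.3 ± 1.66 against 30.7 ± 5.09 (SD, n = 3 each) and a log2 ratio of -0.53. It met the criteria in 1 of 6 fits that left out a library. KDM4A had 84.5, 135 and 112 against 129.7, 165 and 69.6 normalized counts and KDM6B, a demethylase of the Polycomb mark on histone H3, 28.2, 30.5 and 42.2 against 38.2, 32.2 and 22.5 normalized counts. KDM6A, ALKBH5 and FTO had log2 ratios of 0.04, -0.27 and 0.074, and in each the groups overlapped.

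**Figure D4:**
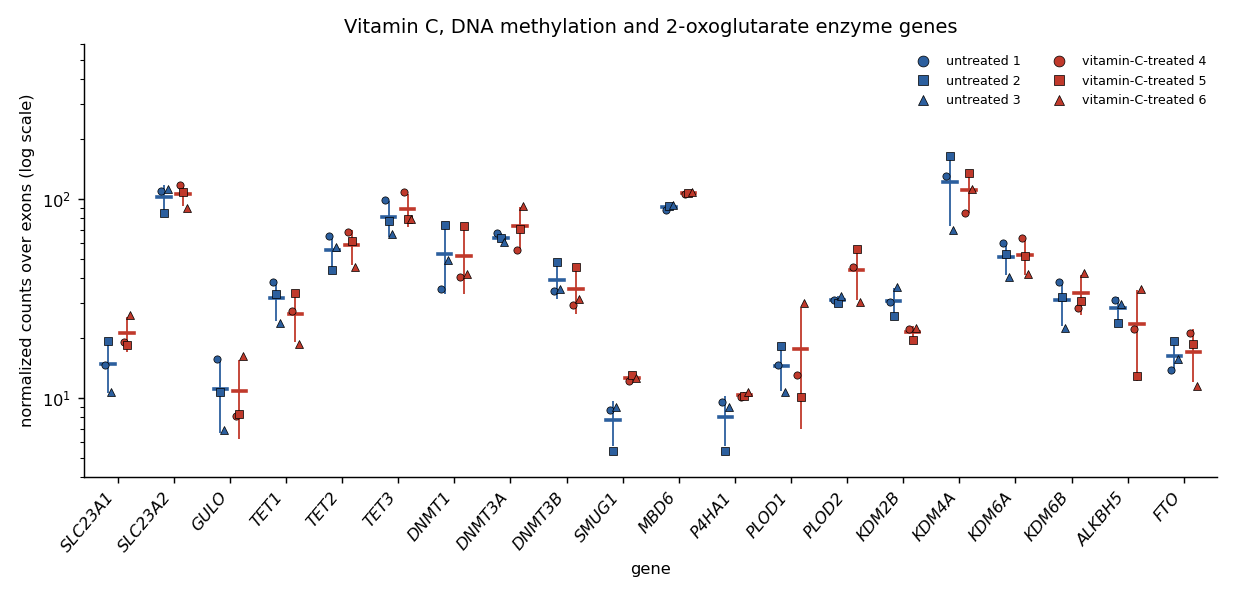
Normalized counts over exons, on a log axis, of 20 genes of vitamin C transport and synthesis, DNA methylation and 2-oxoglutarate enzymes in untreated (blue) and treated (red) libraries, with means and ± 1 SD (n = 3). The groups separate in SMUG1, MBD6, P4HA1 and KDM2B and overlap in the others, TET1, TET2 and TET3 included.

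In the hypoxia response, DDIT4 (chr14:75117708-75119907), a stress-induced inhibitor of mTOR complex 1, met the criteria as high, 1 of 22 measured genes (4.55%, beside 1.11% of all genes). It had 16.1, 14.8 and 13.4 normalized counts in the treated libraries and 9.62, 7.51 and 4.18 in the untreated ones, with 14.8 ± 1.36 against 7.102 ± 2.74 (SD, n = 3 each) and a log2 ratio of 1.06, and it met the criteria without each library in turn. HIF1A, the oxygen-regulated transcription factor gene, had 155, 80.4 and 74.1 against 113, 81.6 and 88.2 normalized counts, in which treated 4 was the single high value. EGLN1 and EGLN3, the prolyl hydroxylases that mark HIF1A for degradation, had log2 ratios of -0.24 and -0.13 with overlapping groups. BNIP3, a mitophagy receptor gene, had a log2 ratio of 1.13 and overlapping groups, with 8.05, 9.31 and 4.37 against 6.21, 2.18 and 1.503 normalized counts.

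Of 42 collagen chain genes and 47 genes of matrix proteins and remodelling, 0 met the criteria, beside 1.11% of all genes as high and 0.807% as low, and the median log2 ratios were 0.0078 and 0.029. COL1A1, COL1A2 and COL3A1, the fibrillar collagens of connective tissue, had log2 ratios of -0.072, 0.085 and -0.0064. COL5A3 had 57.3, 66.7 and 57.2 against 71.7, 69.7 and 80.1 normalized counts and COL24A1 348, 373 and 289 against 393, 378 and 397 normalized counts. In these 2 chains of fibrillar collagens every treated value was below every untreated one, with log2 ratios of -0.29 and -0.21. LOX, which crosslinks collagen, had a log2 ratio of 0.33, MMP2, a gelatinase, 0.029, and TIMP1, an inhibitor of such proteases, 0.02.

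Of 41 adipogenic and lipid storage genes, 0 met the criteria. PPARG, the master regulator of adipogenesis, had 43.3, 33.2 and 48.4 against 50.9, 40.9 and 69.3 normalized counts, ADIPOQ, the adiponectin gene, 113, 81.4 and 66.9 against 116, 94.5 and 109.99 normalized counts, and LEP, the leptin gene, 5.05, 22.2 and 33.5 against 10.3, 12.9 and 15.3 normalized counts. Their log2 ratios were -0.37, -0.30 and 0.66, and the groups overlapped in each. Without treated library 4, ADIPOQ met the criteria at a log2 ratio of -0.53 and LEP at 1.12. CEBPA, another adipogenic regulator, had a log2 ratio of 0.47. Of 19 osteogenic genes, 0 met the criteria, and RUNX2, the osteoblast regulator, had 311, 289 and 251 against 305, 279.9 and 239 normalized counts. SP7 and ALPL, further osteoblast genes, had log2 ratios of -0.20 and -1.01, the latter on low values of 2.02, 0 and 7.37 against 3.32, 3.29 and 12.2 normalized counts. Of 15 chondrogenic genes, ACP5, an acid phosphatase best known from osteoclasts, met the criteria as low with 5.03, 8.38 and 6.24 against 8.56, 10.7 and 11.6 normalized counts, and in 2 of 6 fits that left out a library. SOX9, ACAN and COMP, genes of cartilage, had log2 ratios of 0.15, -0.35 and -0.066.

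PAX7 (chr6:77160827-77268626), the transcription factor of muscle satellite cells, met the criteria as high among 32 mesenchymal and muscle transcription factors. It had 14.1, 12.97 and 9.76 normalized counts in the treated libraries and 5.097, 8.54 and 6.51 in the untreated ones and a log2 ratio of 0.87, with limma adjusted p of 0.99998, and it met the criteria in 2 of 6 fits that left out a library. TWIST1, a mesenchymal factor gene, had 7.03, 1.79 and 2.63 against 6.98, 5.37 and 4.06 normalized counts and overlapping groups. MYOD1, a myogenic factor gene, lay at or below 1.88 normalized counts in each library. Of 41 sarcomere genes 0 met the criteria. MYH7, a slow myosin heavy chain gene, had 53.3, 37.9 and 32.98 against 50.1, 53.6 and 44.2 normalized counts, TTN, the titin gene, 278, 266 and 229.9 against 229.7, 272 and 268 normalized counts, and NRAP, a protein of developing myofibrils, 31.2, 34.2 and 37.6 against 38.9, 41.8 and 37.6 normalized counts, and of these 3 genes the groups separated in NRAP alone, where the highest treated and the lowest untreated value were equal to 3 digits. ACTA1, the skeletal actin gene, separated too, at 2.02, 2.73 and 7.31 against 1.77, 1.08 and 0.0604 normalized counts, with all untreated values below 3. ACTN3, an alpha-actinin of fast fibers, had the highest log2 ratio of the list, 1.58, with overlapping groups, and met the criteria without treated library 4 at 1.92.

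HOX genes, which record position along the body axis, had the second highest list median, a log2 ratio of 0.16 over 29 tested genes, of which 22 (75.9%) had a ratio above 1, beside 50.2% of all tested genes. The median was 0.14 in HOXA, 0.071 in HOXB, 0.26 in HOXC and 0.11 in HOXD, and leaving out each library moved the list's median to between 0.11 and 0.25. None of 35 measured HOX genes met the criteria, beside 1.11% of all genes as high and 0.807% as low. HOXD9 alone passed an unadjusted limma p of 0.05, as lower. HOXD10 (chr15:81911372-81921164) had 50.3, 46.2 and 52.8 normalized counts in the treated libraries and 41.5, 46.1 and 35.2 in the untreated ones, groups that separated by less than 0.2 normalized counts. HOXD13 had 7.04, 2.73 and 3.54 against 1.74, 0.022 and 2.47 normalized counts. HOXD9 went the other way, with 30.2, 14.7 and 15.1 against 36.4, 30.1 and 32.4 normalized counts and a log2 ratio of -0.72, and HOXC13 had the highest ratio, 0.78, with 7.04, 8.37 and 5.303 against 2.51, 2.19 and 7.36 normalized counts. HOXD10 lies within the annotated span of HOXD9 (chr15:81910415-81926276), and whether both genes share exonic reads was not tested. HOXD9 met the criteria without treated library 4 (log2 ratio -1.14) and HOXC13 without untreated library 3 (1.55). HOXA5 and HOXC10 had log2 ratios of -0.14 and -0.079.

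Among 48 Polycomb and Trithorax genes, PHC1 (chr5:62557774-62580640), a subunit of Polycomb repressive complex 1, met the criteria as high with 32.2, 35.2 and 32.2 normalized counts in the treated libraries and 25.1, 26.8 and 15.97 in the untreated ones (log2 ratio 0.55), and still did in 1 of 6 fits that left out a library. Untreated library 3 had the lowest value, far below the other two. EZH2, the methyltransferase of Polycomb repressive complex 2, had 107, 69.4 and 46.3 against 90.97, 68.7 and 58.7 normalized counts, KMT2D, a Trithorax-type methyltransferase, 156, 184 and 195 against 176, 189.7 and 111 normalized counts, and BMI1, another subunit of repressive complex 1, 13.1, 6.45 and 2.53 against 7.001, 2.22 and 6.37 normalized counts. In each of these 3 genes the groups overlapped.

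In the cell cycle, CDK9 was the single gene of 45 cyclins and cyclin-dependent kinases that met the criteria, as it did in 2 of 6 fits that left out a library. WEE2, a kinase of oocyte meiosis, had 37.2, 38.95 and 23.99 against 19.8, 19.3 and 21.9 normalized counts, and PKMYT1, which like it inhibits CDK1, 4.03, 6.4997 and 6.28 against 0.771, 3.201 and 3.75 normalized counts, and in both the groups separated without meeting the criteria. WEE2 met them without treated library 6, at a log2 ratio of 0.90, and PKMYT1 without treated library 4 at 1.31. CCND1, CCNB1 and CDK1, drivers of the cycle, had log2 ratios of 0.35, 0.081 and 0.24 with overlapping groups. Of 33 measured cell cycle inhibitors and senescence genes and 35 measured caspases and BCL2 family genes, 0 met the criteria and in 0 did the groups separate. CDKN2A, the gene of p16, was not among the measured genes, nor were BCL2L2, BAD, BIK, CASP4, CASP12 and BIRC2. CDKN1A, which arrests the cycle, had 20.1, 24.1 and 15.1 against 22.6, 21.4 and 13.4 normalized counts, and BCL2, an inhibitor of apoptosis, 84.5, 110.4 and 49.8 against 82.8, 133 and 60.3 normalized counts. The groups overlapped in both, and in BCL2 treated 5 and untreated 2 were highest and treated 6 and untreated 3 lowest. BAX and CASP8, effectors of apoptosis, had log2 ratios of -0.003 and -0.18.

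Where 1.11% of all genes met the criteria as high and 0.807% as low, immune lists held no gene that met them. These were 61 interleukin and interferon genes with their receptors (median log2 ratio -0.072, the lowest of the 30 lists), 50 chemokine genes with their receptors (-0.050) and 37 Toll-like receptor and NF-kappa-B genes (0.029). The groups separated in IL21R, a receptor of lymphocytes, with 8.05, 9.24 and 11.7 against 12.1, 12.9 and 11.7 normalized counts, and in TLR5, the flagellin receptor, with 9.05, 6.45 and 7.14 against 16.6, 10.8 and 10.6 normalized counts. Both were lower in the treated libraries, IL21R by less than the digits printed between its nearest values. IL1B, an inflammatory cytokine, and IL10, an anti-inflammatory one, had log2 ratios of -0.019 and -0.016. CCL2, a monocyte attractant, had 91.5, 58.2 and 53.5 against 108, 56.97 and 57.5 normalized counts, and CXCL12, which retains stem cells in their niche, 10.1, 6.399 and 12.6 against 12.01, 8.68 and 21.4 normalized counts. NFKB1 and RELA, subunits of NF-kappa-B, and TLR4, the endotoxin receptor, had log2 ratios of -0.17, 0.54 and -0.49, with overlapping groups.

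Of 58 TGF-beta and BMP genes, 64 WNT genes and 57 angiogenic and trophic factor genes, 0 met the criteria and in 0 did the groups separate, with median log2 ratios of 0.032, -0.034 and 0.033. TGFB1, a profibrotic cytokine gene, had 31.2, 29.5 and 53.99 against 52.7, 52.5 and 45.5 normalized counts. Treated 6 lay above all untreated values, and without it the log2 ratio of -0.39 became -0.73 and met the criteria. SMAD3, its signal transducer, and BMP4 had log2 ratios of 0.13 and 0.23. WNT5A, a noncanonical ligand, had 497, 338 and 362 against 417, 309 and 368 normalized counts, FZD1, a receptor, 98.6, 121 and 48.9 against 87.2, 123 and 53.9 normalized counts, and CTNNB1, beta-catenin, 64.4, 34.2 and 26.6 against 46.7, 46.1 and 35.3 normalized counts. The groups overlapped in all of these. VEGFA, HGF and FGF2, secreted trophic factors of MSCs, had log2 ratios of 0.033, 0.065 and 0.23, and VEGFA varied from 36.8 to 115 within the treated group.

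PRKAG3 (chr15:120859486-120866308), a muscle-type regulatory subunit of AMPK, met the criteria as high among 42 insulin, mTOR and AMPK genes, with 11.06, 10.2 and 7.99 normalized counts in the treated libraries and 6.02, 5.39 and 7.65 in the untreated ones (log2 ratio 0.62), and in 2 of 6 fits that left out a library. In this list GYS1, the muscle glycogen synthase, had 164, 149 and 152 against 138, 135 and 128 normalized counts, and RPTOR, the raptor subunit of mTOR complex 1, 36.2, 31.4 and 43.97 against 31.1, 30.03 and 28.6 normalized counts. The groups separated in both, at log2 ratios of 0.21 and 0.31. INSR, the insulin receptor, and AKT2 had log2 ratios of -0.16 and 0.12. Of 46 antioxidant genes, GSS, glutathione synthetase, met the criteria as high with 8.05, 10.2 and 8.94 against 6.02, 7.48 and 5.302 normalized counts, and in 2 of 6 such fits. SOD1, CAT, GPX3 and NFE2L2, antioxidant enzymes and their regulator, had log2 ratios of 0.26, 0.073, 0.05 and 0.08 with overlapping groups.

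Of 37 unfolded protein response genes, PDIA4 (chr9:109260850-109280256), a disulfide isomerase of the endoplasmic reticulum, met the criteria as high with 21.1, 28.7 and 25.96 normalized counts in the treated libraries and 17.3, 17.2 and 16.9 in the untreated ones, and ERO1B, which oxidizes such isomerases, as low with 3.02, 3.73 and 1.74 against 5.15, 6.42 and 5.24 normalized counts. The untreated values of PDIA4 were almost equal, and the criteria were met by PDIA4 in 1 and by ERO1B in 4 of 6 fits that left out a library. XBP1, a transcription factor of this response, had 11.07, 10.2 and 11.7 against 12.9, 17.1 and 16.8 normalized counts and HSP90B1, a chaperone, 37.2, 37.96 and 35.8 against 35.5, 30.1 and 27.4 normalized counts, and their groups separated in opposite directions. DNAJB11, a co-chaperone, had 1.01, 5.598 and 5.42 against 6.83, 8.58 and 10.2 normalized counts and separated as lower. XBP1 met the criteria without untreated library 1 (log2 ratio -0.63). HSPA5, another chaperone, and DDIT3, a factor of stress-induced cell death, had log2 ratios of -0.047 and -0.12. Of 46 autophagy genes, ATG10, an enzyme that conjugates ATG12, met the criteria as high with 9.05, 10.2 and 8.01 against 6.04, 5.38 and 6.45 normalized counts, and PIK3R4 (chr13:1730988-1815555), the regulatory subunit of the kinase VPS34, as low with 19.1, 14.8 and 18.8 against 27.7, 25.8 and 27.2 normalized counts. ATG10 met them without each library in turn, and PIK3R4 in 5 of 6 such fits, the exception being the fit without treated library 5. VPS11, a tethering factor of lysosomes, had 10.1, 11.09 and 13.5 against 5.08, 6.46 and 10.1 normalized counts, with groups that separated only beyond the digits printed, and met the criteria without untreated library 3 (log2 ratio 1.00). MAP1LC3A separated at 0.0022, 1.86 and 2.74 normalized counts in the treated libraries and 0 in all untreated ones, all below 3. ULK1, BECN1 and MAP1LC3B, which act in autophagosome formation, had log2 ratios of 0.077, 0.12 and -0.013. Of 53 MAP kinase cascade genes, 0 met the criteria, while MAPK6 with 15.1, 18.5 and 17.001 against 10.3, 14.97 and 12.9 normalized counts separated as higher. MAPK6 met the criteria without untreated library 2 (log2 ratio 0.54). MAPK14 and MAPK10 had log2 ratios of 0.12 and -0.056.

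MSC surface markers and markers of other cell types were measured as exonic 5hmC, which does not show which cells were present. Of 16 MSC markers and 24 markers of other cell types, 0 met the criteria. NT5E (CD73), THY1 (CD90) and ENG (CD105) had log2 ratios of -0.34, -0.22 and -0.047, and NT5E met the criteria without treated library 5 (-0.73). PTPRC, the leukocyte antigen CD45, had 73.4, 51.8 and 42.8 against 61.5, 40.9 and 54.3 normalized counts, CD34, of hematopoietic and endothelial cells, 14.1, 19.5 and 21.6 against 16.3, 26.7 and 19.5 normalized counts, and CD14, of monocytes, 4.02, 0.87003 and 3.61 against 0.786, 1.11 and 4.83 normalized counts. CDH5, the endothelial cadherin, with 14.1, 15.8 and 11.6 against 17.3, 16.1 and 18.1 normalized counts, and MYH11, the smooth muscle myosin, with 32.2, 23.1 and 31.4 against 49.5, 33.3 and 33.9 normalized counts, were lower in every treated library than in any untreated one. These were 2 of the 24 markers of other cell types, none separated as higher, and over all genes 2.67% separated as lower and 3.24% as higher. The list's median log2 ratio was -0.015, and 11 of its 23 tested genes had a ratio above 1. The part of cell composition in any result was not tested.

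Across all 30 lists, 20 medians were above 0 and 10 below, from -0.072 to 0.16, and whether a list differed from other genes was not tested. Of their 1133 measured genes, 8 (0.706%) met the criteria as high and 5 (0.441%) as low, beside 1.11% and 0.807% of all genes. In 19 lists 0 genes met them, and no list held more than 2.

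**Figure D5:**
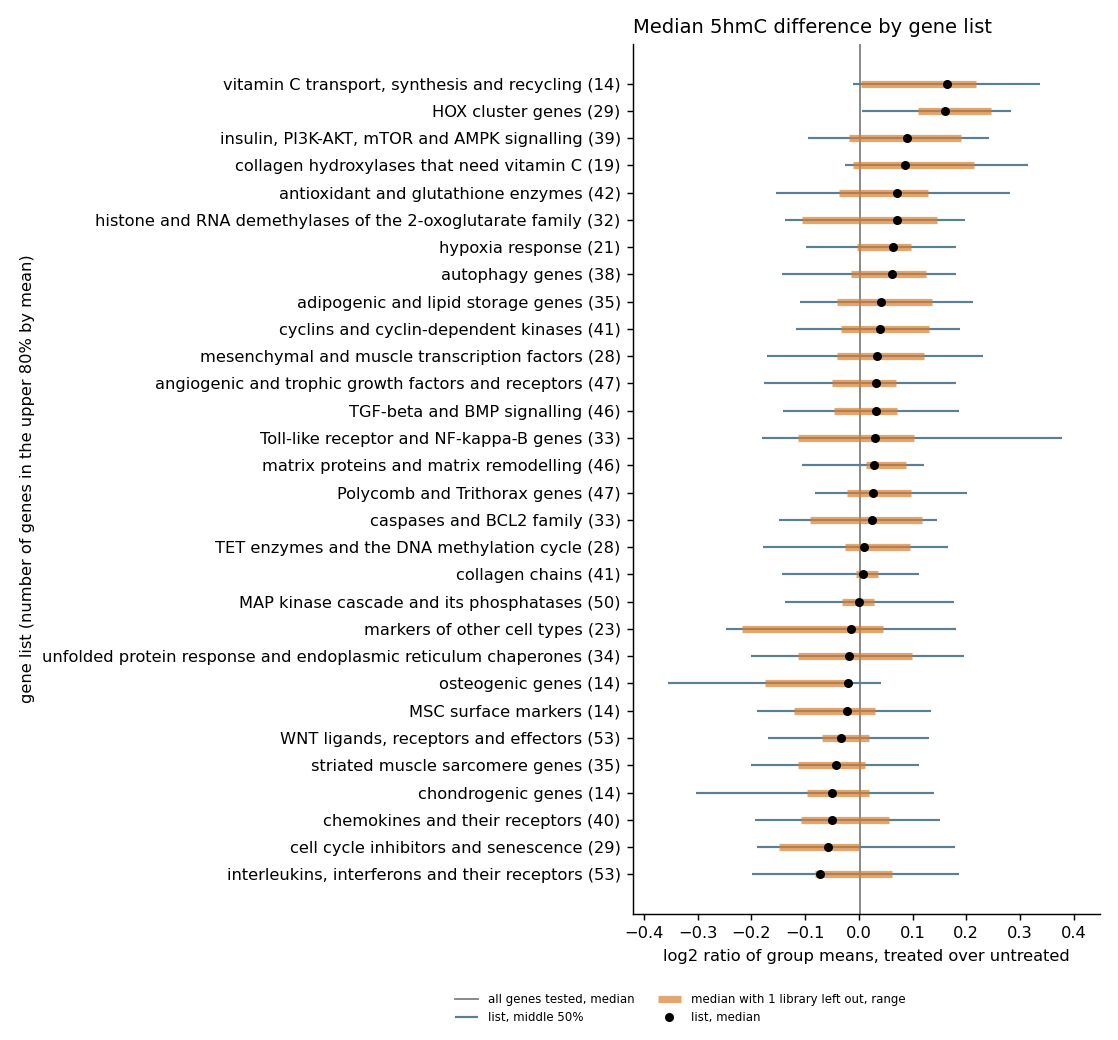
Log2 ratio of treated to untreated means for 30 gene lists, with the median of each list (black), its middle 50% (thin line) and the range of the median with each library left out (orange), for those of its genes that belong to the upper 80% by mean, whose number stands in brackets. The medians lie between -0.072 and 0.16, and the vertical line is the median of all tested genes, 0.0016.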

How the data were processed

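5hmC was measured by hMeDIP-seq in 6 samples of Obese-MSCs. The authors sonicated DNA, captured it with an anti-5hmC antibody, aligned paired reads with Bowtie2 2.3.3.1 to susScr 11.1, removed duplicates with Picard 1.67, counted reads over exons with HTSeq 0.9.1 and processed the counts with edgeR 3.28.1, per the labels and the methods. The deposited signal is a normalized count per gene, fractional and scaled between libraries. Low values lie near steps of about 1 read that differ between libraries, whole reads could not be recovered, and the depth in reads is not known, so no counting interval was computed and no count test was run. A change of all genes together would not be visible in such values.

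From the table, 25 rows with date-like names were dropped and 645 values of numerical residue below 1e-09 were set to 0. All 6 value columns were used, and 0 others. The criteria of the study were applied to the deposited values, a two-sided test with equal variances at p of 0.05 or less and a ratio of at least 1.4 or at most 0.7. limma 3.58.1 in R 4.3.3 was fitted with a trend to log2(value + 1) over the upper 80% by mean (at least 4.17 normalized counts), with Benjamini-Hochberg adjustment. Fold changes are given as the log2 of the ratio of means, with no pseudocount, and none is given where a group lay wholly at 3 normalized counts or less. Single genes were tested by an exact permutation test (two-sided, 20 arrangements, smallest p 0.1). Positions are those of Sscrofa11.1 in the RefSeq gene table, in which all 18967 symbols were found. Computations used Python 3.11.15, numpy 2.4.6, pandas 2.3.3 and scipy 1.17.1, figures matplotlib 3.10.9, and the procedure was tested on simulated data.

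The gene lists and the genes in them were chosen with earlier results of these data known, and the 6 samples by their labels. Named genes were the key genes of each list, each list's highest and lowest ratio among genes in the upper 50% by mean whose groups did not overlap, the 8 highest and 8 lowest ratios of the table among such genes that met the criteria and kept their direction without each library, and the 5 highest means. Other genes were named after their values were seen: all listed genes that met the criteria, all those whose groups did not overlap, and HOXD9, HOXC13, BNIP3, ACTN3, PLOD3 and P3H3. Some genes that these rules name are not reported here. The labels give no batch. Alternatives were other pseudocounts, filters, scalings, thresholds and variance models, and each library left out in turn, and a pairing of libraries added after seeing the data.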

Additional observations from a re-analysis of the deposited data

How the results depend on the processing

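The count of genes past a limma adjusted p of 0.05 was 0 under all 15 alternatives run for it without pairs, with smallest adjusted p values between 0.99957 and 0.999995. The counts by the criteria, 210 high and 153 low, were within 1.5 times under another scaling (median ratio, quantile, equal totals), a ratio threshold of 1.5 and a test on log2(value + 1). They fell to 36 and 30 at a p threshold of 0.01 and to 31 and 37 in the upper 50% by mean, where fewer genes were tested, and the high count to 139 with unequal variances. With each library left out, the high count lay between 195 and 363, the latter without treated library 4, and the low count between 156 and 245, the latter without untreated library 1. The cause was not tested. The limma count at an unadjusted p of 0.05, 148, became 284 with no filter, 35 in the upper 50% by mean and 308 without the trend, and ranged from 162 to 302 when a library was left out, at 302 without treated library 4 and 276 without treated library 6. Of the values of single named genes under another scaling or with a library left out, 141 no longer met the criteria that they met in the full table, 17 met them newly, 12 moved by more than the spread between libraries and 1378 did neither, and 0 of those that met the criteria changed direction. No paired analysis was possible from the labels because they give treated and untreated samples different numbers. Since the values correlated best between treated 4 and untreated 1, 5 and 2, and 6 and 3, a fit with these pairs as a replicate block was added after seeing the data. In it 0 genes passed a limma adjusted p of 0.05 (smallest 0.9997) and 371 an unadjusted p of 0.05, and a paired test in the criteria gave 205 high and 183 low genes, of which 88 and 74 were among the 210 and 153. Pairs chosen by their correlation make the remaining spread smaller by construction. With 3 libraries a group and depth unknown, differences below the spread between libraries could not be resolved.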

Other observations

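Among families of genes that share a symbol, the zinc finger genes (ZNF, ZSCAN, ZFP and ZBTB) had 5 of 318 that met the criteria as high (1.57%) and 0 as low, beside 1.11% and 0.807% of all genes. These were ZNF135 with 11.07, 13.004 and 8.87 against 3.35, 7.45 and 5.21 normalized counts, ZNF598 with 9.06, 10.2 and 10.8 against 5.11, 8.52 and 5.303 normalized counts, ZNF599 with 7.05, 8.31 and 10.8 against 4.32, 5.33 and 2.76 normalized counts, and ZFP57, which protects imprinted marks, and ZNF615, both with all untreated values below 3. Their family's median log2 ratio was -0.0073. Of 349 genes with an SLC symbol, 3 (0.86%) met the criteria as high and 2 (0.573%) as low, again beside 1.11% and 0.807% of all genes. The high ones were SLC6A7, SLC9A4 and SLC2A4RG, the last a regulator of SLC2A4 and not itself a carrier. The low ones were SLC22A13 and SLC30A2. All values of SLC2A4RG and all treated values of SLC30A2 were below 3 normalized counts. SLC22A13, an organic anion transporter, had 8.05, 8.31 and 9.88 against 19.9, 20.3 and 14.5 normalized counts (log2 ratio -1.06), and SLC6A7, a proline transporter of neurons, 14.1, 12.9 and 17.98 against 8.62, 9.64 and 7.87 normalized counts (log2 ratio 0.78). TRIM16 and TRIM35, E3 ubiquitin ligase genes, met the criteria as low, 2 of 50 TRIM genes (4%) beside 0.807% of all genes. They had 3.02, 6.54 and 3.54 against 8.59, 10.7 and 9.12 normalized counts and 6.04, 10.2 and 8.04 against 14.7, 10.8 and 16.6 normalized counts. FBXO32, the atrophy-linked ubiquitin ligase atrogin-1, was low with 18.1, 29.8 and 15.98 against 31.9, 35.4 and 33.7 normalized counts, and FOXN1, a regulator of thymic epithelium, with 7.04, 6.45 and 8.08 against 10.3, 12.9 and 14.1 normalized counts. RAB11FIP3, an effector of recycling endosomes, was high with 8.05, 8.2997 and 11.7 against 4.39, 2.18 and 2.67 normalized counts (log2 ratio 1.60). FOXN1, SLC22A13 and RAB11FIP3 met the criteria without each library in turn, while ZNF598, TRIM35 and FBXO32 did so in 1 of 6 such fits. All of these genes were named after their values were seen. Of 81 cytosolic ribosomal protein genes, RPL22 met the criteria as high with 7.04, 5.52 and 7.18 against 2.53, 3.23 and 5.02 normalized counts. RPL32 met them as low with 13.1, 14.9 and 10.7 against 17.2, 21.4 and 18.2 normalized counts. Each was 1.23% of the family, beside 1.11% as high and 0.807% as low of all genes, and reads of processed pseudogenes could be counted with such genes. Of 72 mitochondrial ribosomal protein genes 0 met them. Genes named only by a LOC number, 2864 in all, held 40 of the high and 31 of the low genes. As shares of these 2864 genes, this was 1.397% high and 1.082% low, beside 1.11% and 0.807% of all genes.

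In the table, 938 genes shared all 6 values, rounded to 6 decimals, with at least 1 other gene. MYOD1 and ATF4 were among them, with 0.0013, 1.88 and 0.884 normalized counts in the treated libraries and 0.840, 1.08 and 1.29 in the untreated ones.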
